A study of Mus musculus with 8 samples.

Results

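The endoplasmic reticulum (ER) folding, stress and secretion genes were 31 genes chosen by symbol out of the 53801 genes of the count table, namely 10 folding enzymes and chaperone-related genes, 4 genes of ER-associated degradation (ERAD), 7 genes of protein export, 4 sensors of the unfolded protein response and 6 genes around the transcription factor ATF4. Values of the genes played no part in the selection rule, although the list was drawn up with earlier results of these data known. They were measured by RNA sequencing in PDGFRα+ PDPN+ CD45- CD31- stromal cells, a fibroblast-rich fraction, that were sorted from early-stage MO5 tumours. MO5 is the B16 mouse melanoma line carrying the ovalbumin gene, here grown under the skin of young adult C57Bl/6 mice. All mice carried a bacterial artificial chromosome in which Adam12 sequences drive Cre-Ires-GFP, so GFP reported the activity of that transgene, not the ADAM12 protein itself. The GFP+ group held 4 libraries of ADAM12+ cells and the GFP- group 4 libraries of ADAM12- cells from the same gate, with no treatment in either. The study counts its replicates in mice, but whether GFP+ and GFP- libraries of the same number came from the same mouse is not given in the sources used here, so the groups were compared without pairing.

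Secreted and membrane proteins enter the ER through the SEC61 channel, are folded there by chaperones, lectins and disulfide isomerases, and leave in COPII-coated vesicles. Fibroblasts that make collagen place a heavy load on this route. The membrane sensors, IRE1α (Ern1), ATF6 and PERK (Eif2ak3), detect unfolded proteins. IRE1α and ATF6 raise the folding and degradation genes through XBP1 and ATF6, whereas PERK phosphorylates the translation factor eIF2α, which lowers protein synthesis and favours translation of ATF4. Other eIF2α kinases, which respond to amino acid shortage, viral RNA or heme shortage, lead to ATF4 as well, so the ATF4 targets can be read apart from the folding genes.

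Total counts ranged from 883144 to 31666734 per library, and GFP- replicate 3 was by far the shallowest. The defining fibroblast genes were high in both groups, with 7 of 10 higher in GFP+ cells (edgeR 6). Summed, they had 567117, 554004, 451304 and 260244 normalised counts in GFP- replicates 1 to 4. In GFP+ replicates 1 to 4 the sums were 783968, 683372, 735179 and 679530, without overlap between the groups. Of 15 melanocyte and melanoma markers, 13 were lower in GFP+ cells (edgeR 12), 1 (Kit) was higher, and none was at 0. Their summed normalised counts were 27501 to 79009 in GFP- and 5200.5 to 12629.8 in GFP+ libraries. Of the markers with an adjusted p, Schwann cell genes were lower for 5 and higher for 1 of 8 (Sox10, also a melanocyte gene, among the lower), endothelial genes lower for 1 of 6 and pericyte genes higher for 1 of 5, and no call was made among 8 leukocyte and 5 plasma cell genes. In such pooled cells, fewer cells of a type cannot be told apart from less RNA per cell.

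The comparison of GFP+ with GFP- cells asked which transcripts distinguish ADAM12+ cells from their neighbours in the same gate. The folding, ERAD, export and sensor genes, 25 in all, held no call in either direction, and all 4 calls fell among the 6 genes of the ATF4 arm. In that arm Ddit3, Trib3 and Chac1 fell and Ppp1r15a rose in GFP+ cells, while Atf4 itself, at -0.080 ± 0.15 (log2 fold change ± SE), was not called. A gene was called when its DESeq2 adjusted p over the whole table was under 0.05. The 4 called members were 12.9% of the 31, beside 9.42% of all 15283 tested genes. The 1 higher member compares with 4.66% of all genes called higher and the 3 lower ones with 4.76% called lower. The edgeR quasi-likelihood test, which called 5.11% of its tested genes, called 0 of the 31, with 8 at an unadjusted p under 0.05, and limma voom called 1 higher and 4 lower. Without any overlap in normalised counts between the groups were 7 of the 31 members, 3 higher and 4 lower (22.6%), beside 12.3% of all tested genes. For 24 of the 31 members, and for 22 of the 25 outside the ATF4 arm, the 95% interval of the log2 fold change lay between -1 and 1, that is, within 2-fold either way.

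**Figure D1:**
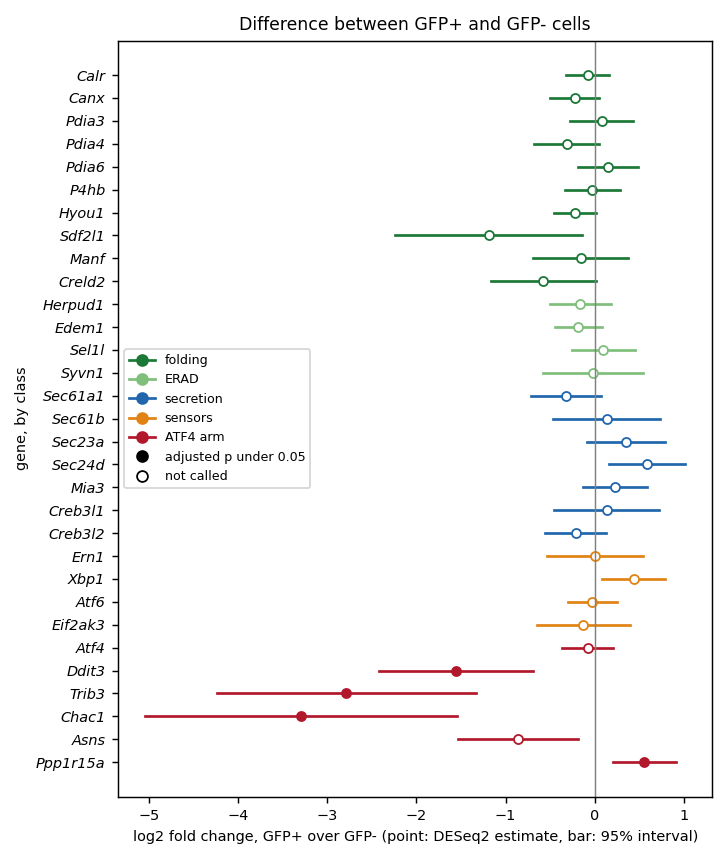
Log2 fold change (GFP+ over GFP-) of each of the 31 genes, grouped by class, with its 95% interval as a bar and filled points for genes with a DESeq2 adjusted p under 0.05. The only filled points are Ddit3, Trib3 and Chac1 on the left (-1.56, -2.79 and -3.29) and Ppp1r15a on the right (0.56), and most other intervals cross 0.

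None of the 10 folding genes was called, beside 9.42% of all tested genes. A negative log2 fold change was found for 8 of 10, and for 7714 of all 15283 tested genes. The median was -0.19 beside -0.0082 over all tested genes. Calr (ENSMUSG00000003814, minus strand of chromosome 8, 84841850 to 84846934; GRCm38) encodes calreticulin, the soluble lectin chaperone of new glycoproteins. Its normalised read counts were 11446, 13042, 11328 and 12378 in GFP- replicates 1 to 4 and 10726, 12707, 10959 and 11332 in GFP+ replicates 1 to 4. These ranges overlapped, with group means of 12049 ± 812 and 11431 ± 887 (SD, n = 4 each). The log2 fold change, -0.077 ± 0.12 (SE), was not called (DESeq2 adjusted p 0.803). The 95% interval, -0.32 to 0.16, is narrow for this abundant gene. Its membrane-bound relative calnexin (Canx) had a log2 fold change of -0.23 (DESeq2 adjusted p 0.371), and of 18 alternatives 1 called it lower, that without GFP- replicate 3 (DESeq2 adjusted p 0.0166).

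The disulfide isomerases, which form and rearrange disulfide bonds, went both ways without a call. Pdia3, the partner of calreticulin and calnexin, stood at 0.077 ± 0.18 (log2 fold change ± SE), and Pdia6 at 0.15 ± 0.17. Pdia4 stood at -0.31 ± 0.19. P4hb, the classical isomerase and also a subunit of the collagen prolyl 4-hydroxylase, was at -0.027 ± 0.16, with group means of 8706 ± 1331 in GFP- and 8562 ± 691 in GFP+ libraries (normalised counts, SD, n = 4 each). The DESeq2 adjusted p of these genes ran from 0.344 to 0.958. The direction of Pdia3 turned without GFP- replicate 4, and that of P4hb when GFP- replicate 1 or 2 or GFP+ replicate 4 was left out.

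The remaining folding genes encode regulators and partners of the chaperone BiP and small stress-induced ER proteins. Hyou1, a nucleotide exchange factor of BiP, had 2101, 1874, 1802 and 1919.8 normalised counts in the GFP- libraries and 1599.7, 1675, 1639 and 1714 in the GFP+ libraries. Every GFP+ library lay below every GFP- library, yet the log2 fold change of -0.22 ± 0.12 (SE) missed the threshold (DESeq2 adjusted p 0.285). Sdf2l1, a partner of ER DNAJ chaperones, had the largest difference of the class and a wide spread. It had 543, 309, 154 and 284 normalised counts in the GFP- libraries and 27.8, 157, 227 and 159 in the GFP+ libraries. GFP+ replicate 1 was the lowest of all and GFP- replicate 1 the highest, and the groups overlapped. The log2 fold change of -1.19 ± 0.54 (SE) had an interval of -2.24 to -0.14 and was not called (DESeq2 adjusted p 0.162). Creld2, an ER protein induced by stress, and Manf, a secreted BiP cofactor, had log2 fold changes of -0.58 ± 0.30 and -0.16 ± 0.27 (DESeq2 adjusted p 0.250 and 0.823). The direction of Manf turned without GFP- replicate 1.

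**Figure D2:**
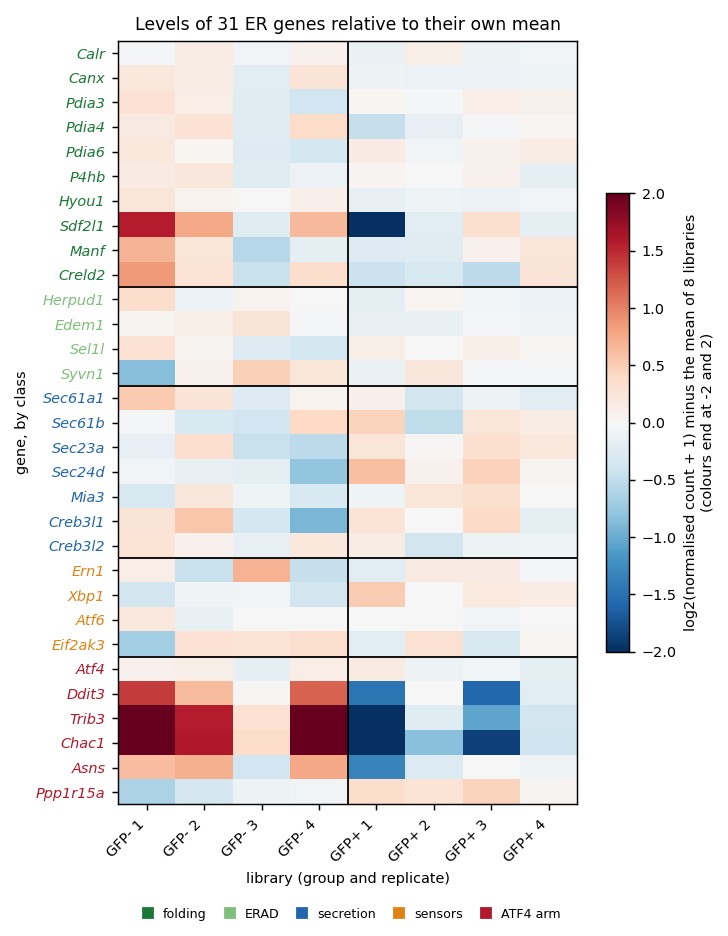
Heat map of log2(normalised count + 1) of each gene (rows, by class) in each of the 8 libraries (columns), less the gene's mean over the 8, with colours that end at -2 and 2. Trib3, Chac1 and Ddit3 are mostly red in GFP- and blue in GFP+ columns, whereas rows of the other classes, Sdf2l1 apart, are pale in most libraries.

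The promoters of the class were examined because XBP1 and ATF6 act through an ER stress response element, whose letters are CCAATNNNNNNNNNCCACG (ERSE). RefSeq promoters of 300 bases, from 250 before to 50 after the annotated start, were found for 26 of the 31 genes on GRCm38.p6, the exceptions being Hyou1, Manf, Sec61a1, Creb3l1 and Atf6. On either strand, an ERSE was present in 5 of the 26, of which 4 were folding genes and 1 was an ERAD gene, and in 0.119% of all 32851 promoters. The shorter ERSE-II, ATTGGNCCACG, was present in 1 member promoter (Herpud1) and in 0.0365% of all. These are matches of letters and not measured binding. The stretches printed here show where the element lies in the genes named, with the match in capitals and each stretch written 5′ to 3′ on the strand of its gene. In Calr and Creld2 the capitals hold the element on the opposite strand, and in Herpud1 the first capitals mark an element of ATF4 described with that class and the second the ERSE-II.
Calr (chr8:84847050-84847118, minus strand): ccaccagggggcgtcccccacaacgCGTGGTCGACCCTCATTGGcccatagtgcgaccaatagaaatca
Canx (chr11:50325775-50325843, minus strand): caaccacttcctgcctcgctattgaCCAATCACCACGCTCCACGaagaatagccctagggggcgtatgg
Pdia6 (chr12:17266466-17266534, plus strand): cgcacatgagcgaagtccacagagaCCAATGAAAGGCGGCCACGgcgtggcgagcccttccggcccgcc
Creld2 (chr15:88819495-88819563, plus strand): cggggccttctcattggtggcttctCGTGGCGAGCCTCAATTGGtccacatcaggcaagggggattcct
Syvn1 (chr19:6046507-6046575, plus strand): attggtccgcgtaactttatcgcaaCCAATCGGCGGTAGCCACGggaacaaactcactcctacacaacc
Herpud1 (chr8:94386292-94386412, plus strand): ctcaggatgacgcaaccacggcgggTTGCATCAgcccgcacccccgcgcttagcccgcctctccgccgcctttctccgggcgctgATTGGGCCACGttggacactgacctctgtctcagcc
The elements end 144 (Calr), 127 (Canx), 80 (Pdia6), 108 (Creld2), 26 (Syvn1) and 42 (Herpud1) bases before the RefSeq start, from which all positions of elements are counted and which can differ from the end of the GENCODE interval given for a gene. None of these 6 genes was called in the comparison of GFP+ with GFP- cells.

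ERAD removes proteins that fail to fold, and none of its 4 genes was called, beside 9.42% of all tested genes. Herpud1, a membrane scaffold of the pathway, had a log2 fold change of -0.16 ± 0.17 (SE). Edem1, which trims mannose from glycoproteins bound for degradation, had one of -0.18 ± 0.13. For Sel1l and Syvn1, the adaptor and the ubiquitin ligase of the HRD1 complex, the values were 0.098 ± 0.18 and -0.020 ± 0.29. DESeq2 adjusted p ran from 0.480 to 0.982, and all 4 intervals lay between -1 and 1. The summed normalised counts of the class were 3854 to 4822 in GFP- and 4189 to 4389.7 in GFP+ libraries.

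Of the 7 export genes, 5 had a positive log2 fold change, beside 7569 of all 15283 tested genes. The median was 0.13, again with no call, beside 9.42% called of all tested genes. Sec24d (ENSMUSG00000039234, plus strand of chromosome 3, 123267455 to 123365641; GRCm38), a cargo-binding subunit of the COPII coat needed for the export of procollagen, came nearest to the threshold. Its normalised counts were 2408, 2239, 2186 and 1434 in GFP- and 3765, 2639, 3429 and 2582 in GFP+ replicates 1 to 4. All 4 GFP+ libraries lay above all 4 GFP- libraries, and GFP- replicate 4 was the lowest. The log2 fold change came to 0.59 ± 0.22 (SE), and the adjusted p was 0.0674 by DESeq2 and 0.107 by edgeR. It passed the threshold in 4 of 18 alternatives. The lowest DESeq2 adjusted p, 0.00565, came with the replicate number as a block. The others were TMM factors (DESeq2 adjusted p 0.0298), a minimum mean of 10 counts (0.0452) and the fit without GFP+ replicate 4 (0.0496). By edgeR with the block, Sec24d had an adjusted p of 0.0627. With the melanocyte markers as a term, described with the ATF4 arm, its log2 fold change turned to -0.24.

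Its partner in the inner coat, Sec23a, had a log2 fold change of 0.35 ± 0.23 (DESeq2 adjusted p 0.392). Leaving out GFP- replicate 2 gave 0.57 and a call (DESeq2 adjusted p 0.0497). Mia3 (TANGO1), the receptor that loads collagen at ER exit sites, stood at 0.23 ± 0.18. The channel genes Sec61a1 and Sec61b stood at -0.32 ± 0.20 and 0.13 ± 0.31. Creb3l1 and Creb3l2 encode ER-anchored transcription factors of secretory genes, and their log2 fold changes were 0.13 ± 0.30 and -0.21 ± 0.17. Apart from Sec24d, the DESeq2 adjusted p of the class ran from 0.370 to 0.877. Both inner-coat genes hold TGACGTGG (UPRE), the unfolded protein response element bound by ATF6 and XBP1, in the promoter window, which 0.676% of all promoters do. The matched stretches, with the element in capitals, were the following.
Sec24d (chr3:123267459-123267488, plus strand): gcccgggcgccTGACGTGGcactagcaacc
Sec23a (chr12:59011993-59012022, minus strand): ctcctccccttTGACGTGGcagaggcggca
The Sec24d element starts 26 bases before the RefSeq start, inside the GENCODE interval of the gene, which begins farther upstream, and that of Sec23a 6 bases after its RefSeq start.

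The sensors of the unfolded protein response were not called either. Xbp1 (ENSMUSG00000020484, plus strand of chromosome 11, 5520659 to 5525893; GRCm38), whose mRNA is the splicing substrate of IRE1α, had 927, 1131, 1154 and 929 normalised counts in the GFP- libraries and 1696, 1183, 1372 and 1322 in the GFP+ libraries. The groups did not overlap, although GFP+ replicate 2 lay close to the highest GFP- library. The log2 fold change of 0.44 ± 0.18 (SE), interval 0.086 to 0.79, was not called (DESeq2 adjusted p 0.111), and the DESeq2 adjusted p stayed between 0.0749 and 0.294 when single libraries were left out. With the melanocyte term its log2 fold change turned to -0.13 ± 0.35. Counts per gene do not separate spliced from unspliced Xbp1, so IRE1α activity was not measured. Ern1, the gene of IRE1α, ranged from 624 to 1384 normalised counts among GFP- and from 735 to 967 among GFP+ libraries, and its log2 fold change was 0.0020 ± 0.27. Atf6 stood at -0.025 ± 0.14. Eif2ak3 stood at -0.13 ± 0.27, with GFP- replicate 1 at 483 normalised counts and the other GFP- libraries at 934 to 959. DESeq2 adjusted p of Ern1, Atf6 and Eif2ak3 ran from 0.860 to 0.998.

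All calls among the members were in the ATF4 arm. Its transcription factor is controlled mainly in translation, so the level of Atf4 mRNA need not follow its activity. Atf4 (ENSMUSG00000042406, plus strand of chromosome 15, 80255184 to 80257541; GRCm38) had 3027, 3074, 2505 and 3121 normalised counts in GFP- and 3242, 2651, 2753 and 2519 in GFP+ replicates 1 to 4. The groups overlapped, and the DESeq2 adjusted p was 0.840. Ddit3 (ENSMUSG00000025408, plus strand of chromosome 10, 127290774 to 127296288) encodes CHOP, the transcription factor associated with prolonged ER stress. It had 457, 269, 176 and 394 normalised counts in the GFP- and 62.5, 175, 57.6 and 148 in the GFP+ libraries. GFP- replicate 3, the lowest of its group, lay just above GFP+ replicate 2, the highest of the other, so the groups were separate by a small margin and rested there on 16 raw counts in GFP- replicate 3. Ddit3 fell 2.95-fold in GFP+ cells, from a mean of 324 ± 126 to one of 111 ± 59.7 (SD, n = 4 each). On the log2 scale the change was -1.56 ± 0.44 (SE), and the adjusted p was 0.00757 by DESeq2 and 0.0556 by edgeR. Per 1000 normalised counts of Atf4, the libraries held 151, 87.4, 70.2 and 126 counts of Ddit3 in GFP- and 19.3, 66.0, 20.9 and 58.9 in GFP+ replicates 1 to 4, all GFP- libraries above all GFP+ libraries. In the GENCODE annotation, 105 bases of Ddit3 exons, 6.13% of their length, lie in another entry of the same symbol and strand. The count table holds no second entry of that symbol, and whether reads were lost there was not examined. Gm4189 and Mars overlap Ddit3 exons on the other strand.

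Trib3 (ENSMUSG00000032715, minus strand of chromosome 2, 152337422 to 152344032; GRCm38) encodes a pseudokinase that is induced by ATF4 and CHOP. It had 134, 81.0, 33.0 and 132 normalised counts in the GFP- libraries and 0, 22.2, 12.3 and 20.5 in the GFP+ libraries. Every GFP- library lay above every GFP+ library, but the nearest, GFP- replicate 3, rested on 3 raw counts. The 0 in GFP+ replicate 1 allows up to 4.17 normalised counts (3 counts, counting error only). Trib3 fell by 2.79 ± 0.74 (SE) on the log2 scale, 6.90-fold, with a DESeq2 adjusted p of 0.00390 and an edgeR adjusted p of 0.0992. Chac1 (ENSMUSG00000027313, plus strand of chromosome 2, 119351229 to 119354381) encodes an enzyme that breaks down glutathione. It had 44.8, 27.2, 11.0 and 37.8 normalised counts in the GFP- and 0, 4.18, 1.54 and 6.04 in the GFP+ libraries. No library reached 100 raw counts and GFP- replicate 3 held 1, so its size of change is loosely fixed even though the groups did not overlap. The 0 of GFP+ replicate 1 has the limit given for Trib3. Chac1 fell by 3.29 ± 0.89 (SE) on the log2 scale, with an interval of -5.05 to -1.54, a DESeq2 adjusted p of 0.00498 and an edgeR adjusted p of 0.103.

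Asns (ENSMUSG00000029752, minus strand of chromosome 6, 7675169 to 7693254; GRCm38), asparagine synthetase, had 459.9, 492, 231 and 515 normalised counts in GFP- and 118, 249.8, 298 and 283 in GFP+ replicates 1 to 4. The groups overlapped, since GFP- replicate 3 lay below 3 GFP+ libraries, and GFP+ replicate 1 was the lowest library. The log2 fold change of -0.86 ± 0.34 (SE) was not called (DESeq2 adjusted p 0.0977), but it was by limma voom (limma adjusted p 0.0314) and without GFP- replicate 3 (DESeq2 adjusted p 0.0180). Ppp1r15a (ENSMUSG00000040435, minus strand of chromosome 7, 45522916 to 45526268), which encodes GADD34, the phosphatase subunit that removes the phosphate from eIF2α, went the other way. It had 1882, 2311, 2703 and 2800.2 normalised counts in the GFP- libraries and 3713, 3518, 3963 and 3017 in the GFP+ libraries. All GFP+ libraries were higher than all GFP- libraries. Ppp1r15a rose 1.47-fold in GFP+ cells, 0.56 ± 0.18 (SE) on the log2 scale, where the adjusted p was 0.0256 by DESeq2 and 0.0642 by edgeR. Exons of Tulp2 overlap it on the opposite strand.

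**Figure D3:**
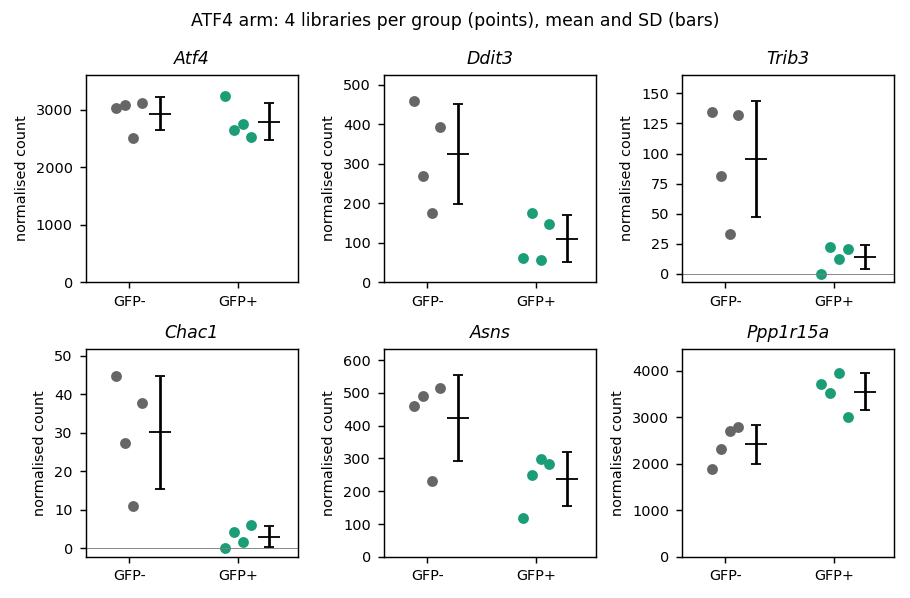
Normalised counts of the 6 genes of the ATF4 arm in the 4 GFP- and 4 GFP+ libraries (points), with group mean and SD (bars). Points of the groups overlap for Atf4 and Asns, are lower in GFP+ for Ddit3 (57.6 to 175 against 176 to 457), Trib3 and Chac1, and higher in GFP+ for Ppp1r15a.

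These calls were not kept in every setting. GFP- replicate 4 had the lowest summed fibroblast genes and the highest summed melanocyte markers of all libraries (260244 and 79009 normalised counts). Without GFP- replicate 4, 0 members were called lower, with DESeq2 adjusted p of 0.0611 for Ddit3, 0.0679 for Trib3 and 0.0819 for Chac1, and Chac1 was also not called without GFP- replicate 1 (DESeq2 adjusted p 0.0546). Without the shallow GFP- replicate 3, 5 were called lower, Canx and Asns being added. The log2 fold changes of the 3 genes stayed negative in all 8 fits, from -1.87 to -1.35 for Ddit3, -3.10 to -2.43 for Trib3 and -3.87 to -2.98 for Chac1. With all libraries thinned to 883144 counts none of them was called, Ddit3 standing at -1.38 (DESeq2 adjusted p 0.183), Trib3 at -2.99 (0.0958) and Chac1 receiving no adjusted p. Ppp1r15a lost its call without GFP- replicate 1 or 2 or GFP+ replicate 1, 2 or 3, with DESeq2 adjusted p from 0.0591 to 0.131, and its log2 fold change ran from 0.45 to 0.64 over the 8 fits.

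Melanocyte and melanoma markers moved the same way as the lower genes. Their summed normalised counts were 54652, 49879, 27501 and 79009 in GFP- and 5200.5, 8704, 5489.8 and 12629.8 in GFP+ replicates 1 to 4. Within GFP- cells, replicates 1 and 4 were the highest and replicate 3 the lowest both in these markers and in Ddit3, Trib3 and Chac1. Within GFP+ cells, replicates 2 and 4 were the highest in the markers and in the same 3 genes. Asns did not keep this order, being highest in replicate 3 among GFP+ libraries and higher in replicate 2 than in replicate 1 among GFP- libraries. When a melanocyte score of each library (the mean of log2(normalised count + 1) over the 15 markers) entered the model as a term, the log2 fold changes became 0.65 ± 0.72 for Ddit3, 1.08 ± 1.44 for Trib3, 0.98 ± 2.18 for Chac1, 0.48 ± 0.70 for Asns and 0.21 ± 0.39 for Ppp1r15a (SE). In that fit none of the 31 members was called (DESeq2 adjusted p 0.954 for Ddit3 and 0.976 for Ppp1r15a) and 31 genes of the whole table were, 11 higher and 20 lower. The score did not overlap between the groups (9.67 to 10.7 in GFP- and 6.49 to 8.52 in GFP+ libraries), so that the term and the group cannot be told apart.

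**Figure D4:**
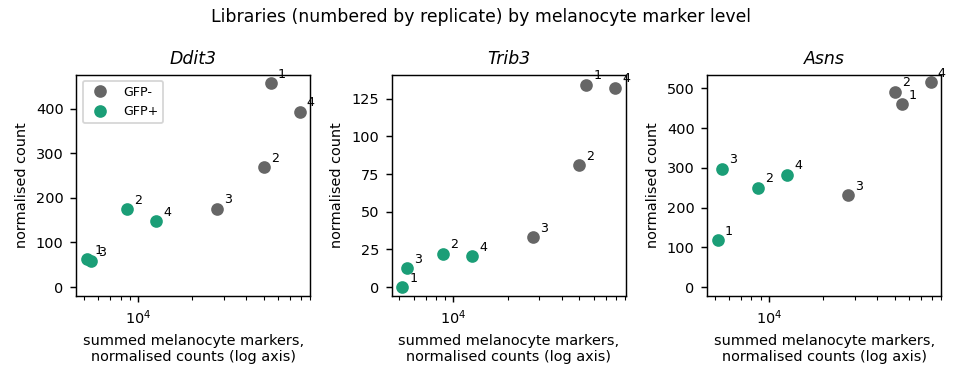
Normalised counts of Ddit3, Trib3 and Asns (vertical axes) against the summed normalised counts of 15 melanocyte markers (log axis) in each library, numbered by replicate. The GFP- libraries (27501 to 79009 marker counts) lie to the right of the GFP+ libraries (5200.5 to 12629.8), with Ddit3 and Trib3 higher on the right.

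A set of early response genes was also higher in the group in which Ppp1r15a was higher. Of 16 genes of the response to tissue dissociation, immediate early and heat shock genes such as Fos, Jun and Egr1, 9 rose in GFP+ cells, 0 fell and 7 were not called, with edgeR calling 7 higher. Their summed normalised counts were 98901, 95674, 103632 and 88219 in GFP- and 178403, 139644, 165002 and 137414 in GFP+ replicates 1 to 4, without overlap. In GFP+ cells replicates 1 and 3 were the highest and replicate 4 the lowest both in this sum and in Ppp1r15a, whereas in GFP- cells Ppp1r15a was highest in replicate 4, where the sum was lowest. Ppp1r15a is itself an early response gene in many cells. The part of this response in the Ppp1r15a result was not tested.

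The promoters of the arm were searched for the C/EBP-ATF response element bound by ATF4 (CARE, TGATGNAA). It was present on either strand in 4 of the 26 member promoters, 3 of them in the ATF4 arm and the other Herpud1, and in 3.97% of all promoters. The 3 stretches show the match in capitals, which in Chac1 and Trib3 holds the element on the opposite strand.
Chac1 (chr2:119351024-119351081, plus strand): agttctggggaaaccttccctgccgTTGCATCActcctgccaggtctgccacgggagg
Trib3 (chr2:152344028-152344057, minus strand): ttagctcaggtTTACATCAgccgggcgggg
Asns (chr6:7693214-7693243, minus strand): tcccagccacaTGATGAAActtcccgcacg
The elements of Chac1 and Asns start 193 and 23 bases before the RefSeq start, and that of Trib3 lies 14 bases after it. By the GENCODE intervals given for these genes, the element of Asns lies inside the gene and those of Trib3 and Chac1 lie upstream of it. Chac1 and Trib3 fell, whereas Asns had a log2 fold change of -0.86 without a call. No match was found in the windows of Atf4, Ddit3 and Ppp1r15a.

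Other genes of the same pathways were taken from 6 lists of 188 genes, of which 184 were in the table under the listed symbol and 178 received an adjusted p. Of the 178, 15 were called (8.43%), beside 9.42% of all tested genes, with 6 higher and 9 lower, and edgeR called 6 (Asna1 and 5 of the ATF4 target list). The called share was 20.6% of the ATF4 target list, 12.5% of the stress signalling list, 7.14% of the chaperone list, 4.76% of the ERAD list, 4.17% of the translocon list and 2.44% of the COPII and COPI list. Leaving out GFP- replicate 1, GFP- replicate 4 or GFP+ replicate 3 left 10, 8 and 8 calls, and leaving out GFP- replicate 3 gave 23. The ER chaperone and glycan processing list held 43 genes, with 1 higher and 2 lower and a median log2 fold change of 0.12. Hspa5, the gene of BiP, a widely used reporter of ER stress, averaged 14843 ± 1422 normalised counts over the GFP- and 17173 ± 1298 over the GFP+ libraries (SD, n = 4 each). The log2 fold changes of Hspa5 (0.21 ± 0.13, SE) and of Hsp90b1, the gene of GRP94 (0.059 ± 0.14), were not called (DESeq2 adjusted p 0.375 and 0.880). Fkbp7, a prolyl isomerase, rose (log2 fold change 0.93), and Ero1l, the oxidase that recharges disulfide isomerases, and Mogs, the first glucosidase of N-glycan trimming, fell (-0.79 and -0.73), none of the 3 called by edgeR.

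In the other ER lists, 5 genes were called, and whether their shares differ from the 9.42% of all tested genes was not tested. Of 24 measured translocon and signal peptidase genes 1 fell, Asna1 (log2 fold change -0.89, edgeR adjusted p 0.0454), which delivers tail-anchored proteins to the ER. Of 41 COPII, COPI and cargo receptor genes 1 fell, the outer-coat gene Sec13 (-0.56, DESeq2 adjusted p 0.0450, edgeR adjusted p 0.119). The medians of these lists were -0.031 and 0.046. Among 21 ERAD genes with an adjusted p, 1 rose, the peptide N-glycanase gene Ngly1 (0.66, DESeq2 adjusted p 0.0254, edgeR adjusted p 0.129). Of 16 such stress signalling genes, Eif2ak2, the interferon-inducible eIF2α kinase, rose (0.38) and the ribosome-associated chaperone gene Dnajc2 fell (-0.86), neither called by edgeR (edgeR adjusted p 0.136 and 0.0515). Sec13, Ngly1 and Eif2ak2 were not called by DESeq2 with the replicate number as a block.

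The list of ATF4 and integrated stress response targets, 35 genes apart from the 6 members, had mostly negative values. Of the 35, 28 had a negative log2 fold change, with a median of -0.36 beside -0.0082 over all tested genes, and 7714 of these 15283 were negative. Of the 34 with an adjusted p, 4 fell and 3 rose (20.6%, beside 9.42% of all tested genes; edgeR 3 and 2). The melanocyte markers described with the ATF4 arm were lower in the same group, and their part in these values was not tested. The listed genes that fell were Shmt2, Aldh1l2 and Mthfd2, enzymes of mitochondrial one-carbon metabolism (log2 fold changes -1.46, -1.38 and -1.03), and Slc7a5, a subunit of the large neutral amino acid transporter (-0.94). Vldlr, Cebpb and Atf3 rose (1.06, 0.62 and 0.42). Of these, Vldlr is a lipoprotein receptor, and Cebpb and Atf3 are transcription factors also induced by other stimuli. The 11 aminoacyl-tRNA synthetase genes of the list, which charge tRNAs with amino acids, had log2 fold changes from -0.71 to -0.017 with a median of -0.46, none of them called (DESeq2 adjusted p 0.0592 to 0.981).

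Levels of the genes were compared with each other per length, as normalised counts per kilobase of annotated exon. Calr was the highest of the 31 in both groups, at 4184 in GFP- and 3969 in GFP+ cells, followed by P4hb (3043 and 2993) and Pdia3 (2645 and 2794). P4hb and Pdia3 were closer to each other in GFP- cells than their SDs (465 and 577). The lowest levels were those of Trib3, at 44.8 in GFP- and 6.46 in GFP+ cells, and Chac1, at 18.4 and 1.80. Ddit3 went from rank 22 in GFP- to rank 29 in GFP+ cells (189 and 64.7 per kilobase), and Ppp1r15a from rank 8 to rank 6 (825 and 1209.8). The called genes of the arm thus included the lowest of the group, whereas the folding enzymes were measured on far more reads. Exons of Pdia3, Pdia6 and Syvn1 overlap those of Catsper2, Atp6v1c2 and Mrpl49 on the opposite strand, and Calr has an annotated pseudogene, Calr-ps, which could share its reads.

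**Figure D5:**
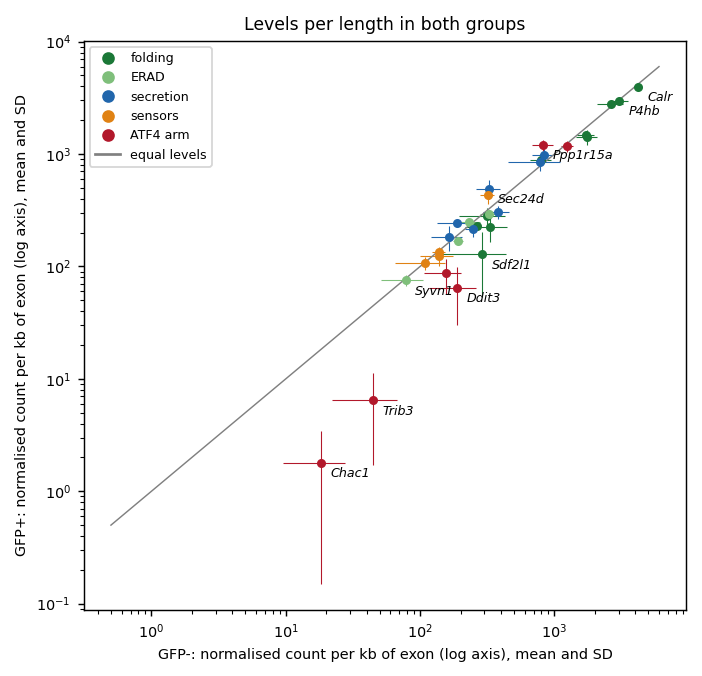
Normalised count per kilobase of exon in GFP+ cells (vertical log axis) against GFP- cells (horizontal log axis), with mean and SD for each gene and a line of equal levels. Folding genes other than Sdf2l1 and Creld2 (330 in GFP- and 225 in GFP+) lie near the line, up to Calr (4184 and 3969). Ddit3, Trib3 and Chac1 lie below it.

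The spread between libraries was described for the 25 genes outside the ATF4 arm and for the arm. In the 25 the coefficient of variation (SD over mean) had a median of 20.9% in GFP- and 12.5% in GFP+ cells. The value was smaller in GFP+ cells for 21 of the 25 (84.0%), beside 57.6% of the 8812 genes with a mean of at least 100 normalised counts, and larger for Calr, Sdf2l1, Creb3l2 and Xbp1. In the ATF4 arm it was larger in GFP+ cells for 5 of 6, with medians of 34.9% in GFP- and 44.2% in GFP+ cells. No share over genes of like level was computed for the arm. Trib3 and Chac1 averaged 13.7 and 2.94 normalised counts in GFP+ cells, where counting error is large. Its part in their spread was not tested. Without GFP- replicate 3 the spread was smaller in GFP+ cells for 18 of the 25 (72.0%) and for 49.0% of those 8812 genes. That library was the lowest GFP- library for 16 of the 31 genes, among them 5 of the 6 of the ATF4 arm.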

How the data were processed

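The 4 GFP+ and 4 GFP- libraries had been made from total RNA with a strand-specific low-input kit (SMARTer Pico) and read on an Illumina NextSeq. Per the labels and the study's methods, the authors trimmed reads with cutadapt 3.4, mapped them to GRCm38 with STAR 2.7.3a and counted them per Ensembl gene with featureCounts 2.0.1, using the strand. Multi-mapping reads, such as those of paralogs and pseudogenes, can be lost or split by such counting. The deposited table holds raw counts per gene and library, from which all values here were computed. Its 8 per-sample columns of normalised values and the authors' own comparison columns (means, fold changes, p-values and dispersions) were not used.

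The 29043 genes with a count were fitted with DESeq2 1.42.0 (R 4.3.3) on the group alone, with default size factors (0.0910 to 2.98) and two-sided Wald tests, adjusted by Benjamini-Hochberg. Independent filtering left 13443 and Cook's distance 317 genes without an adjusted p. All 31 members received one. Normalised counts are raw counts over size factors. Intervals and limits for a count of 0 rest on the fitted spread between libraries and on counting error alone, respectively, and reads were not collapsed by molecular identifiers. Alternatives were edgeR 4.0.16 (quasi-likelihood, TMM), limma voom 3.58.1, other size factors and filters, a stricter threshold, the replicate number as a block, a melanocyte score as a term, libraries thinned to the shallowest, and each library left out in turn. edgeR with the block was chosen after seeing the data. Scripts were tested on counts simulated with known changes.

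Exon lengths and overlaps came from GENCODE M21 on GRCm38, where 53706 of 53801 identifiers (99.8%) and all 31 members were found. Promoter sequences are from RefSeq (GRCm38.p6). Protein features were not analysed here. The members and lists were chosen with earlier results of these data known. All 31 members are named. Of each wider list the called genes with the 3 largest changes in each direction were named, plus Hspa5 and Hsp90b1. Slc7a5, outside this rule, was named after its values were seen.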

Additional observations from a re-analysis of the deposited data

Results flagged for a closer look

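In 96 groups of 4 libraries (48 named genes in both groups), 3 held a library far from the other 3, with a gap over range above Dixon's 95% critical value, which chance gives in about 1 of 20 groups. Eif2ak3, the gene of the sensor PERK, had 483 normalised counts in GFP- replicate 1 and 934 to 959 in the other GFP- libraries. Atf4 had 2505 normalised counts in GFP- replicate 3, the shallowest library, and 3027 to 3121 in the other GFP- libraries. The amino acid transporter gene Slc7a5 had 1208 normalised counts in GFP+ replicate 1 and 658 to 746 in the other GFP+ libraries. Neither Eif2ak3 nor Atf4 was called with or without these libraries.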

How the results depend on the processing

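Of all tested genes 1439 were called, 712 higher and 727 lower. The number was 732 genes (405 higher, 327 lower) with edgeR, 806 genes (432 higher, 374 lower) with thinned libraries, 844 genes (419 higher, 425 lower) at an adjusted p under 0.01, 31 genes (11 higher, 20 lower) with the melanocyte term and 596 genes (340 higher, 256 lower) with edgeR and the replicate block. Leaving out single libraries gave 969 to 1837 genes (460 to 937 higher, 469 to 900 lower). Members called higher were 1, but 2 with TMM factors, with a minimum mean of 10 counts or with the replicate block (Sec24d added), 0 with edgeR with or without the block, the melanocyte term or an adjusted p under 0.01, and 0 to 2 without single libraries. Members called lower were 3, but 0 with edgeR with or without the block, the melanocyte term or thinned libraries, and 0 to 5 without single libraries. Wider list genes called were 15, but 6 with edgeR, 1 with edgeR and the block, and 8 to 23 without single libraries. With the melanocyte term the log2 fold change turned for Calr 0.16, Pdia4 0.32, Sdf2l1 0.59, Manf 0.38, Creld2 0.39, Sel1l -0.0070, Syvn1 0.030, Sec61b -0.27, Sec24d -0.24, Creb3l1 -0.49, Ern1 -0.32, Xbp1 -0.13, Atf6 0.0065, Eif2ak3 0.34, Ddit3 0.65, Trib3 1.08, Chac1 0.98 and Asns 0.48. Each of these values was smaller in size than its SE (0.26 for Calr, 0.36 for Pdia4 and 1.19 for Sdf2l1), so their signs are not fixed. Directions of uncalled genes also turned for Syvn1 with limma (0.077), the block (0.027) or edgeR with the block (0.035), for Sec61b with limma (-0.056) or thinned libraries (-0.13), and for Ern1 with thinned libraries (-0.15) or size factors from abundant genes (-0.017). Without single libraries the ranges that cross 0 were Pdia3 -0.027 to 0.20, P4hb -0.11 to 0.044, Manf -0.32 to 0.080, Sel1l -0.0017 to 0.23, Syvn1 -0.23 to 0.11, Creb3l1 -0.083 to 0.38, Ern1 -0.14 to 0.26 and Atf6 -0.085 to 0.049. The cause of these changes was not tested. No called member reversed except with the melanocyte term. In GFP- cells, ranks of level per kilobase held for 27 of 31 members when counts were scaled by library totals. Deviations of same-numbered libraries correlated for replicates 1 and 4 (0.15 and 0.24), each best with its own number, but not for 2 and 3 (-0.15 and -0.12, over 14173 genes). These values cannot decide whether same-numbered libraries share a mouse. The main comparison was left unpaired, with the block as an alternative. The block called 1492 genes, Sec24d among them (0.59, DESeq2 adjusted p 0.00565) and Sec13, Ngly1 and Eif2ak2 not. Trib3 and Chac1 held at most 3 raw counts in the shallowest library.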
